A study of Mus musculus with 4 samples.

Results

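Lymph node T cells that carried transcripts of Ifit1 and Ifit3 were compared with lymph node T cells that carried neither. Ifit1 and Ifit3 encode interferon-induced proteins with tetratricopeptide repeats, which bind foreign RNA, and both are used as markers of cells that have responded to interferon. The comparison took the lymph node cells that the authors labelled Cd4 or Cd8, 4661 of the 10558 cells in the series. Cells with 2 or more unique molecular identifiers (UMIs, counted transcripts) summed over Ifit1 and Ifit3 formed the Ifit-positive side, with 679 cells. Cells with 0 UMIs of both genes formed the Ifit-negative side, with 3278 cells, and the 704 cells with 1 UMI were placed on neither side. The cells were thus chosen by their measured counts of the 2 genes, and both genes were left out of every comparison below.

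Interferons are secreted proteins that signal through cell-surface receptors. Type I interferons bind IFNAR1 and IFNAR2, which act through the kinases JAK1 and TYK2 on a complex of transcription factors, STAT2 and IRF9 among them, that binds a DNA motif called the interferon-stimulated response element. Interferon gamma binds IFNGR1 and IFNGR2 and acts mainly at a different motif, the gamma-activated site. The genes switched on include antiviral effectors, sensors of foreign nucleic acid, GTPases, ubiquitin-like modifiers, antigen presentation genes and regulators of the pathway itself, and naive T cells are known to carry low levels of many of these transcripts.

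Single T cells of mice bearing B16F10 melanoma, a transplantable skin tumor line, were sequenced in droplets from the 5′ end of transcripts, for RNA and for receptors. Per the labels, every sample carries the strain entry RAG1- BW TRP-1 TCR and the treatment entry untreated. The protocols, written alike for all samples, describe cyclophosphamide given once at 250 mg/kg, transfer of TRP1 CD4+ T cells and resection of tumors at day 11 with sorting of transferred CD4+ and CD4+CD8+ cells, whereas the lymph node titles name endogenous cells and their mice and sort are not described separately. There was 1 RNA library per tissue, so no value below has a replicate, no test was possible, and every interval covers counting error only. The lymph node library held 4988 cells, and the tumor library, used only at the end, held 5570. The coreceptors followed the labels: Cd4 stood at 148 and 160 CPM on the positive and negative sides of Cd4-labelled cells and at 13.2 and 13.6 CPM in Cd8-labelled cells, and Cd8a at 3.15 and 9.86 CPM in the former and 518 and 506 CPM in the latter.

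Among Cd4-labelled cells 248 of 1873 were Ifit-positive, a share of 13.2% (exact 95% interval 11.7% to 14.9%). Among Cd8-labelled cells the share was 15.5% (431 of 2788, interval 14.1% to 16.9%). The Cd8-labelled cells were sequenced more deeply, with a median of 6243.5 UMIs on the Ifit-negative side against 4681 in Cd4-labelled cells. When every cell was reduced to 2000 UMIs, leaving out 62 Cd4- and 26 Cd8-labelled cells, the shares were 6.46% (5.37% to 7.69%) and 5.58% (4.75% to 6.50%), so the order of the labels turned with depth and no order was read from it. Most positive cells lay close to the threshold. Pooled over labels, 704 cells had 1 UMI, 257 had 2, 156 had 3, 188 had 4 to 7 and 78 had 8 or more, with 32 as the highest. Of the 679 positive cells 439 (64.7%) held both transcripts, 85 held Ifit1 alone and 155 held Ifit3 alone.

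**Figure D1:**
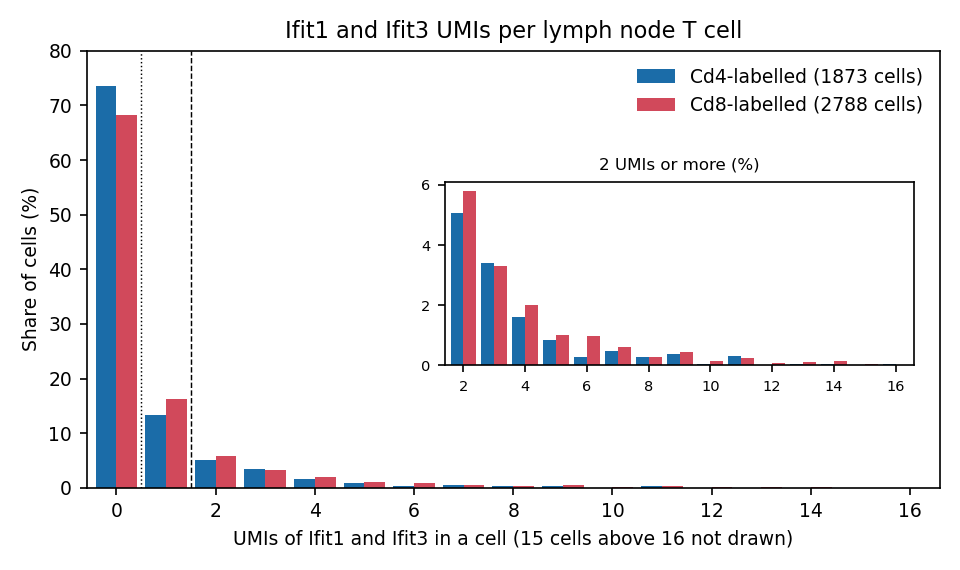
Share of cells (%) by the number of Ifit1 and Ifit3 UMIs in a cell, for 1873 Cd4-labelled and 2788 Cd8-labelled lymph node cells. The inset enlarges cells with 2 or more UMIs, the dotted and dashed lines bound the cells with 1 UMI that joined neither side, and in both labels the shares decline without a gap between positive and negative cells.

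The difference between the sides was large for a small set of genes and slight for the rest. UMIs were summed over the cells of each side, scaled to the total UMIs of the side (CPM, the usual unit of expression), and compared as the log2 ratio of CPM + 1. A gene was counted at 50 CPM or more on either side and called at 2-fold. Of 2051 genes counted, 54 (2.63%) were at least 2-fold higher in Ifit-positive cells and 0 were 2-fold lower. The median log2 ratio over all counted genes was -0.01, and 83.9% of them lay within 0.2 of 0. On an already measurable background the set was smaller: 15 of the 54 reached 50 CPM in Ifit-negative cells too, 0.766% of the 1957 genes that did, while the other 39 were counted only because they were high in Ifit-positive cells.

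Of the 54 genes, 44 belonged to lists of interferon-stimulated genes and 1 more, Cxcl10, to a list of chemokines of the interferon response. The 7 interferon lists together held 145 genes of the table, of which 90 were counted and 85 of those lay above 0, beside 48.4% of all genes counted. Their median log2 ratio was 0.98. The 5 at or below 0 were Ifi27, Ifngr1, Ifngr2, Jak1 and Socs3. Of all 2051 genes counted, 94 reached 50 CPM only in Ifit-positive cells and so had to lie above 0. The counts above 0, the calls and the medians of lists, here and below, can be raised by such members. They describe the genes counted and support nothing by themselves.

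**Figure D2:**
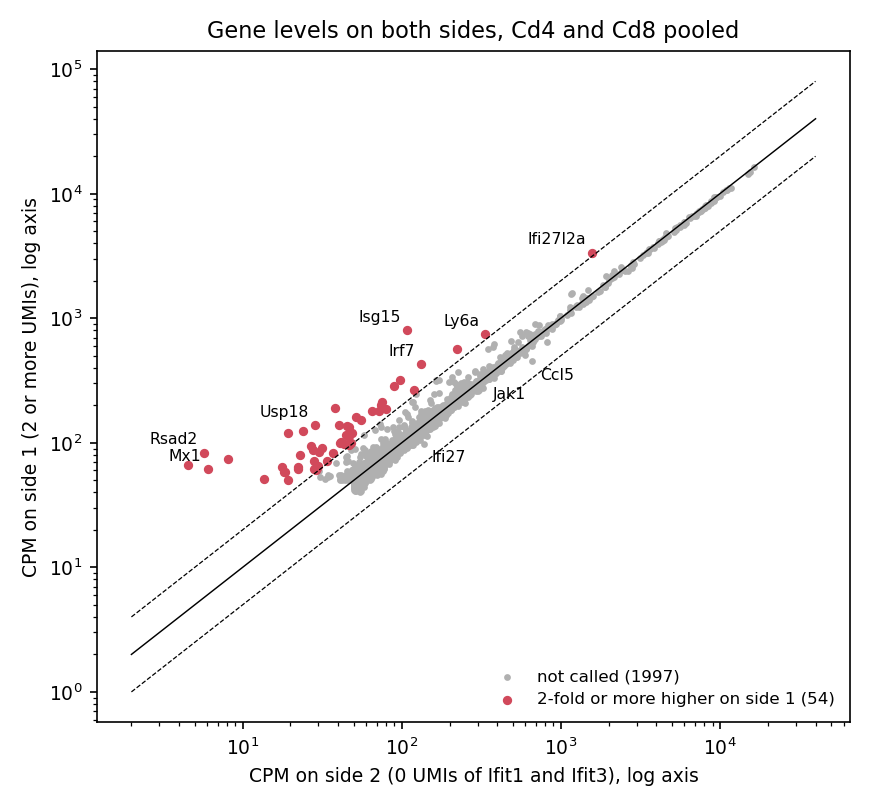
Level of each of 2051 genes in Ifit-positive cells (vertical, side 1) against Ifit-negative cells (horizontal, side 2), in CPM on log axes, with the line of equality and dashed lines at 2-fold. The 54 red genes lie above the upper dashed line and no gene lies below the lower one.

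Antiviral effectors, the proteins that act on viral RNA, nucleotides and particles, held the highest ratios. Of 21 counted effectors 15 were called, and the median of the list was 1.57. Rsad2, the radical SAM enzyme viperin that makes a chain-terminating nucleotide, stood at 83.2 CPM in Ifit-positive and 5.75 CPM in Ifit-negative cells, 14.5-fold higher (11.6 to 18.1). Its transcripts were found in 28.4% of positive and 2.56% of negative cells. Cmpk2, the nucleotide kinase encoded beside Rsad2, had 73.5 against 8.06 CPM (9.12-fold, 7.48 to 11.2). Mx1, a dynamin-like GTPase that traps viral nucleoproteins, had 61.6 against 6.02 CPM (10.2-fold, 8.17 to 12.9). These 3 genes were rare in Ifit-negative cells, so their ratios rest on few transcripts there, 107 UMIs for Rsad2 and 112 for Mx1 among 18603058.

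Isg15 combined a high level with a high ratio. It encodes a ubiquitin-like protein that is attached to other proteins, and it stood at 805 CPM in Ifit-positive and 108 CPM in Ifit-negative cells, 7.46-fold higher (7.06 to 7.89). It was found in 84.8% of positive and 33.9% of negative cells, and in 63.6% and 17.5% at 2000 UMIs per cell. The exonuclease gene Isg20 was 4.97-fold higher (189 against 38.0 CPM), and Oasl2, of the oligoadenylate synthetase family that senses double-stranded RNA, 5.16-fold (124 against 24.1 CPM). The family members Oas1a and Oas3 were 3.73-fold and 3.19-fold higher at lower levels, 51.0 and 58.6 CPM in Ifit-positive cells. Rtp4, a receptor-transporting protein that restrains RNA viruses, had 285 against 90.1 CPM (3.17-fold). Bst2, the tetherin that holds virions at the cell surface, had 568 against 223 CPM (2.55-fold, 2.42 to 2.68). The most abundant called gene was Ifi27l2a, an interferon-inducible membrane protein of mitochondria, with 3375 against 1581 CPM (2.14-fold, 2.09 to 2.18), so transcripts of this gene were plentiful on both sides.

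Ifit3b is a near-identical neighbour of Ifit3. It had 65.9 against 4.52 CPM (14.6-fold, 11.4 to 18.9), but reads of Ifit3 and Ifit3b can be divided between them by the counting, so its ratio is not independent of the rule. The relative Ifit2, under 50 CPM on both sides and so not counted, stood at 29.2 and 8.71 CPM. Also under the minimum were Ifitm3, which blocks virus entry, at 23.5 against 2.69 CPM, and the kinase gene Eif2ak2, which halts translation, at 49.6 against 12.8 CPM. Of the 37 listed effectors 35 were in the table, and Ifitm1 and Ifitm2 had no UMI in Ifit-positive cells.

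The promoters of the called genes were searched for the core of the interferon-stimulated response element because it is the element through which type I interferon acts. RefSeq promoters (250 bases before to 50 after the start, build GRCm38.p6) were matched by symbol for 43 of the 54 genes. The letters GAAA followed by any 2 bases and GAAA again, read on either strand (TTTC, 2 bases and TTTC on the other), occurred in 23 of the 43 (53.5%). They occurred in 12 of 39 matched genes with log2 ratios of 0.5 to 1 (30.8%), in 65 of 1542 with ratios between -0.5 and 0.5 (4.22%) and in 1079 of 27025 genes with a RefSeq promoter (3.99%). The letters of the gamma-activated site (TTC, 3 bases and GAA, the same on both strands) occurred in 6 of the 43 (14.0%), beside 9.55% of all genes. The 2 motifs overlapped in 1 called gene. A match of letters is a description and shows no binding, and 11 called genes had no entry.

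The windows below show matches of the 2 genes of the rule and of called genes of several roles, 5′ to 3′ on the strand of the gene. Only the upstream match nearest the start is in capitals, and the Isg15 window holds further overlapping matches that are not marked. They lie upstream of the start of the promoter entry used for Ifit1 (chr19:34640789-34640828, plus strand), Ifit3 (chr19:34583392-34583431, plus), Ifit3b (chr19:34607788-34607827, plus), Rsad2 (chr12:26456548-26456587, minus), Isg15 (chr4:156200860-156200899, minus), Slfn5 (chr11:82951932-82951971, plus), Oas3 (chr5:120777710-120777749, minus), Stat2 (chr10:128270261-128270300, plus) and Cxcl10 (chr5:92349078-92349117, minus). The annotated genes Ifit3, Ifit3b and Slfn5 begin earlier, at 34583119, 34607530 and 82951349, so their windows lie inside the annotated gene. Over all entries, the promoter start was the gene start in 19826 of 32851.
Ifit1: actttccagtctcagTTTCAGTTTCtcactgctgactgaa
Ifit3: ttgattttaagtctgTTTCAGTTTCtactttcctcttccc
Ifit3b: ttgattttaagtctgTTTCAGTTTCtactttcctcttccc
Rsad2: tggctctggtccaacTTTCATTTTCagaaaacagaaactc
Isg15: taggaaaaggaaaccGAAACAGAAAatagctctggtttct
Slfn5: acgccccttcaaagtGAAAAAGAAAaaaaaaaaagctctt
Oas3: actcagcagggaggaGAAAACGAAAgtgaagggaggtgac
Stat2: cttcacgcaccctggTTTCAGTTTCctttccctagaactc
Cxcl10: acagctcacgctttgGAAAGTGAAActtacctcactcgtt
The windows of Ifit3 and Ifit3b have the same letters throughout. The marked match began 85 bases before the start in Ifit1, 120 in Rsad2, 66 in Isg15, 222 in Stat2 and 213 in Cxcl10. Of the 20 genes named for the highest ratios 16 had a promoter entry and 9 of those a match; Cmpk2, Oasl2, Isg20, Trafd1, Phf11c, Irf7 and Pml had entries without these letters in the window.

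Sensors of foreign nucleic acid formed another list. Of 10 counted sensors 7 were called and all 10 lay above 0, with a median of 1.22. Zbp1, which binds Z-form nucleic acid and can start necroptosis, had 318 against 97.8 CPM (3.26-fold, 3.03 to 3.50). Ddx58, the RNA helicase RIG-I, had 97.7 against 43.4 CPM (2.25-fold), and Trim25, the ligase that activates it, 61.6 against 27.95 CPM (2.21-fold). The sister helicases Ifih1 (MDA5) and Dhx58 (LGP2) stayed under the minimum, at 47.4 against 11.7 CPM and 36.7 against 6.67 CPM. Of the HIN-200 proteins, which bind DNA, Ifi209, Ifi208, Ifi213 and Ifi206 were called, at 2.80-, 2.72-, 2.76- and 2.47-fold. Their genes form a cluster of similar sequences, so the division of reads among them is uncertain. Tmem173, the adaptor STING, had 50.3 against 47.3 CPM, 1.06-fold (0.910 to 1.24), the lowest of the counted sensors.

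Genes of the signalling pathway differed by position in it. Of 16 counted members 3 were called and 12 lay above 0, with a median of 0.25. The receptors of type I interferon were close to even, Ifnar1 at 70.4 against 59.3 CPM (1.19-fold, 1.04 to 1.35) and Ifnar2 at 64.5 against 55.8 CPM (1.16-fold, 1.01 to 1.32). Jak1, the shared kinase, had 318 against 331 CPM (0.959-fold, 0.904 to 1.02). The receptor of interferon gamma was not higher: Ifngr1 had 144 against 154 CPM (0.939-fold, 0.859 to 1.03) and Ifngr2 40.5 against 54.8 CPM (0.739-fold, 0.625 to 0.870). The value of Ifngr2 differed by label, with 77.9 against 109 CPM in Cd4-labelled cells (0.714-fold, 0.573 to 0.882) and 24.4 against 25.8 CPM in Cd8-labelled cells (0.949-fold, 0.724 to 1.23). With the labels weighted alike the pooled log2 ratio of Ifngr2 was -0.37 in place of -0.43.

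Of the transcription factors of the pathway, some were higher in Ifit-positive cells and others were near even. Irf7, the factor that amplifies type I interferon production, had 431 against 132 CPM (3.25-fold, 3.06 to 3.46). Stat2 had 57.9 against 18.1 CPM (3.19-fold, 2.70 to 3.78). Irf9, at 130 against 80.3 CPM, reached 1.62-fold (1.47 to 1.79) and was not called. Irf1, a factor induced early by interferon gamma, had 407 against 375 CPM (1.09-fold, 1.03 to 1.14), and Irf3, which acts upstream of interferon production, had 28.5 against 28.6 CPM. Of the brakes on the pathway, Usp18, which removes ISG15 and blocks IFNAR2, had 139 against 28.5 CPM (4.89-fold, 4.34 to 5.50). The other two brakes were nearer to even, Socs1 at 192 against 161 CPM (1.19-fold, 1.10 to 1.29) and Socs3 at 114 against 115 CPM.

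GTPases of cell-autonomous defence were higher as a group at moderate ratios. All 10 counted guanylate-binding proteins and immunity-related GTPases lay above 0, 4 were called and the median was 0.96. Gbp7 and Gbp9, which attack pathogen vacuoles, were both 2.43- to 2.44-fold higher, with 119 against 48.9 CPM for Gbp7. Iigp1 had 62.1 against 22.4 CPM (2.77-fold, 2.37 to 3.24), and Gbp2 96.7 against 46.9 CPM (2.06-fold). Just under 2-fold were Irgm1 at 1.99-fold, Gbp4 at 1.94-fold, Ifi47 at 1.89-fold and Igtp at 1.85-fold. Members of this family are similar in sequence, so reads may be divided among neighbours.

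Modifiers of proteins and nuclear body genes were also among the called genes. Of 10 counted ubiquitin-like, PARP and TRIM proteins 6 were called, with a median of 1.24, and of 11 Schlafen and nuclear body genes 7, with a median of 1.31; all 21 lay above 0. Slfn5, a Schlafen family member, had 119 against 19.4 CPM (6.16-fold, 5.37 to 7.08), and Slfn8 and Slfn1 were 2.54-fold and 2.23-fold higher. Pml, the scaffold of nuclear bodies, had 87.0 against 27.8 CPM (3.13-fold), and its partner Daxx 161 against 51.9 CPM (3.09-fold). Parp9 and Dtx3l, which work as a complex, had 91.5 against 31.6 CPM (2.90-fold) and 99.1 against 41.2 CPM (2.40-fold). Herc6, a ligase for ISG15 in mice, had 64.3 against 22.1 CPM (2.90-fold). Phf11b and Phf11c, PHD finger genes of 1 cluster, were 3.47-fold and 3.50-fold higher and may share reads.

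Antigen presentation genes shifted little. Of 20 counted genes of MHC class I and peptide loading 0 were called, but 19 lay above 0 and the median was 0.28. The heavy chain H2-K1 had 2166 against 1927 CPM (1.12-fold, 1.10 to 1.15) and B2m, the light chain, 2396 against 2158 CPM (1.11-fold, 1.09 to 1.14). Peptide loading genes were further apart, with Tap1, a subunit of the peptide transporter, at 153 against 96.4 CPM (1.59-fold) and Tapbp at 247 against 159 CPM (1.55-fold). Of the immunoproteasome subunits Psmb10 was 1.48-fold and Psmb8 1.29-fold higher. The non-classical genes H2-T22 and H2-T23 were 1.61-fold and 1.55-fold higher, and MHC class I genes are similar enough for reads to be divided among them. Calr, a chaperone of the same path, was the member below 0, at 126 against 129 CPM.

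Surface genes known to respond to interferon in T cells all lay above 0 where counted, 12 of 12, with 2 called and a median of 0.52. Ly6a, the antigen Sca-1, had 747 against 336 CPM (2.22-fold, 2.13 to 2.32). Ly6e had 1602 against 1178 CPM (1.36-fold), Ly6c2 903 against 687 CPM (1.31-fold) and Cd69, which retains T cells in lymph nodes, 749 against 643 CPM (1.17-fold). Ly6c2 transcripts were mostly in the Cd8 label, which made up 431 of 679 positive and 1902 of 3278 negative cells. Its pooled ratio therefore also reflects this mix of labels. Within Cd8-labelled cells Ly6c2 stood at 1049 CPM with 0 UMIs of Ifit1 and Ifit3. It stood there at 1285, 1184, 1281 and 1454 CPM with 2, 3, 4 to 7 and 8 or more. Lgals3bp, a secreted galectin ligand, was 2.58-fold higher. Cd274, the ligand PD-L1, was under the minimum at 35.8 against 14.4 CPM.

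The chemokine Cxcl10, a ligand of CXCR3, had 64.5 against 17.6 CPM (3.67-fold, 3.11 to 4.32). It was concentrated in few cells: 73 of the 679 positive cells held its 272 UMIs, and 10 of them held 46.7%. Ifng, the gene of interferon gamma and the 1 interferon gene measured here, was rare on both sides, at 11.6 against 9.08 CPM. The 9 called genes on no list were Trafd1, Ifi214, BC147527, Samd9l, Jaml, Ncoa7, Mitd1, 1600014C10Rik and Zufsp. Trafd1, which restrains innate signalling, had the highest ratio of these, with 93.9 against 26.9 CPM (3.49-fold, 3.05 to 3.99).

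No gene was 2-fold lower in Ifit-positive cells, and the 10 genes named for the lowest ratios had log2 ratios between -0.53 and -0.33. They were Ccl5, Ifi27, Pcbp1, Ifngr2, Nolc1, Ndufa5, C1qbp, Hdac7, Igfbp4 and Denr. Ifi27, named for its induction by interferon alpha in other cells, had 98.6 against 137 CPM (0.719-fold, 0.646 to 0.797), with 76.3 against 112 CPM in Cd4-labelled and 108 against 151 CPM in Cd8-labelled cells. It was thus lower in positive cells in both labels, opposite to its relative Ifi27l2a. C1qbp, a mitochondrial protein, had 113 against 144 CPM (0.784-fold, 0.709 to 0.864), and Nolc1, a nucleolar protein, 44.1 against 58.4 CPM. Igfbp4, a transcript of naive T cells, had 643 against 815 CPM (0.789-fold), but Cd4-labelled cells carry more of it and made up 248 of 679 positive and 1376 of 3278 negative cells. Within Cd4-labelled cells its ratio was 0.904 (1608 against 1780 CPM), and within Cd8-labelled cells 0.760 (227 against 298 CPM, interval 0.699 to 0.826). With the labels weighted alike the pooled log2 ratio of Igfbp4 was -0.19 in place of -0.34.

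Ccl5, a chemokine of memory and effector T cells, had the lowest pooled ratio, 0.693-fold (454 against 655 CPM). Among Cd4-labelled cells it was the only gene called 2-fold lower, 1 of 2133 counted (0.0469%), yet this rested on few cells. Positive Cd4-labelled cells held 1 UMI of Ccl5 in 1 of 248 cells, and negative ones held 1326 UMIs in 20 of 1376 cells, of which 1 cell held 820 and the top 10 held 99.2%. Among Cd8-labelled cells it was found in 29.9% of positive cells (25.6% to 34.5%) and 33.3% of negative cells (31.2% to 35.5%).

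Genes of T cell state were near even. No member was called in the lists of naive T cells (16 counted, median -0.05), memory and effector T cells (7, median 0.01), T cell receptor signal (9, median 0.00), immediate early and dissociation stress (16, median 0.04), glycolysis (8, median 0.03), cytokine receptors (6, median -0.14), or survival and death (8, median -0.09). Ccr7, which guides T cells into lymph nodes, had 440 against 481 CPM (0.915-fold, 0.870 to 0.962). The transcription factor Tcf7 had 326 against 331 CPM and the receptor Il7r 309 against 303 CPM. Bcl2, a survival factor, had 209 against 251 CPM pooled (0.831-fold, 0.773 to 0.893), but the labels differed. Cd8-labelled cells had 257 CPM of Bcl2 with 0 UMIs of Ifit1 and Ifit3, and 197, 207, 198 and 203 CPM with 2, 3, 4 to 7 and 8 or more. Cd4-labelled cells had 240 CPM with 0 UMIs, and 175, 243, 264 and 291 CPM in the same classes. S100a6, a calcium-binding protein of activated and memory cells, had the highest ratio of the 7 counted memory genes, at 223 against 150 CPM (1.48-fold, 1.38 to 1.60). Its transcripts were mostly in the Cd8 label, at 316 against 216 CPM (1.47-fold, 1.36 to 1.58), while Cd4-labelled cells had 6.29 against 28.03 CPM (0.224-fold), on 8 and 182 UMIs. The T cell receptor component Cd3e, a gene of T cell identity, was at 814 and 798 CPM.

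The split was also made within each label. In Cd4-labelled cells 52 of 2133 genes counted (2.44%) were at least 2-fold higher, and in Cd8-labelled cells 56 of 2037 (2.75%), with 0 genes 2-fold lower in the latter. They shared 43 genes, 82.7% of the Cd4 calls and 76.8% of the Cd8 calls, and all 54 pooled calls lay above 0 in both, beside 46.6% and 51.7% of all genes counted. The 54 genes were chosen on the pooled sums of these same cells, which largely fixes that direction, so nothing is read from it. Across the 1893 genes counted in both labels the log2 ratios had a Pearson r of 0.79, and 0.48 over the 1844 genes that were not called pooled, as a description of genes that share a library and are not independent. Isg15 was nearly alike, at 793 against 104 CPM in Cd4-labelled and 810 against 110 CPM in Cd8-labelled cells.

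**Figure D3:**
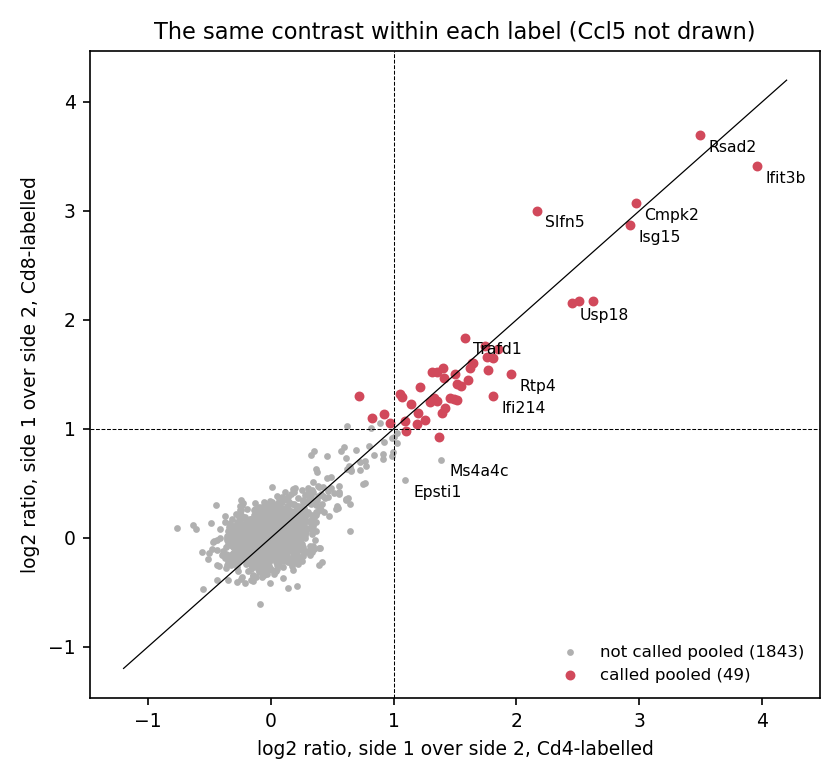
Log2 ratio of Ifit-positive over Ifit-negative cells in Cd8-labelled (vertical) against Cd4-labelled (horizontal) lymph node cells, with the line of equality and dashed lines at 2-fold. The red points, 49 of the 54 genes called pooled that were counted in both labels, lie above 0 on both axes, with Slfn5 above the line. Ms4a4c and Epsti1, which were not called pooled and are not red, lie below the line.

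A few genes stood apart between the labels, named here after their values were seen; whether the labels differ was not tested, since there was 1 library. Slfn5 was 8.57-fold higher in positive Cd8-labelled cells (7.04 to 10.5) and 4.59-fold in Cd4-labelled cells (3.75 to 5.62). The negative sides set this apart, with 12.5 CPM in Cd8-labelled and 32.2 CPM in Cd4-labelled cells, while the positive sides had 107 and 148 CPM. Trim25 was 2.52-fold higher in Cd8-labelled (2.09 to 3.02) and 1.66-fold in Cd4-labelled cells (1.24 to 2.20). The opposite order held for Ms4a4c, a membrane protein of the MS4A family, with 2.68-fold in Cd4-labelled cells (68.4 against 25.6 CPM) and 1.65-fold in Cd8-labelled cells (151 against 91.2 CPM). Epsti1 likewise was 2.14-fold higher in Cd4-labelled (296 against 138 CPM) and 1.44-fold in Cd8-labelled cells (720 against 499 CPM). For both genes the negative Cd8-labelled cells already carried the higher level. Mx1 had similar ratios at different levels, 19.7 against 2.31 CPM in Cd4-labelled and 79.8 against 8.01 CPM in Cd8-labelled cells.

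Levels of Isg15, Rsad2 and Irf7 were higher at each step in the number of Ifit1 and Ifit3 UMIs, below the threshold of the rule as well as above it. Isg15 stood at 108 CPM in cells with 0 UMIs, 222 with 1, 437 with 2, 618 with 3, 926 with 4 to 7 and 2050 with 8 or more. The cells just outside and just inside the rule, with 1 and 2 UMIs, thus had levels between those of the negative and the strongly positive cells. Rsad2 went through 5.75, 16.3, 31.0, 38.8, 101 and 296 CPM over the same classes, and Irf7 through 132, 239, 369, 377, 470 and 641 CPM. Ifi27l2a flattened, with 1581, 2494, 2937, 3400, 3948 and 3299 CPM. Ifi27 ran the other way, with 137, 131, 114, 90.9, 91.5 and 84.2 CPM, and Jak1 stayed between 300.2 and 340.1 CPM. The median depth of these classes lay between 5497 and 6212 UMIs.

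**Figure D4:**
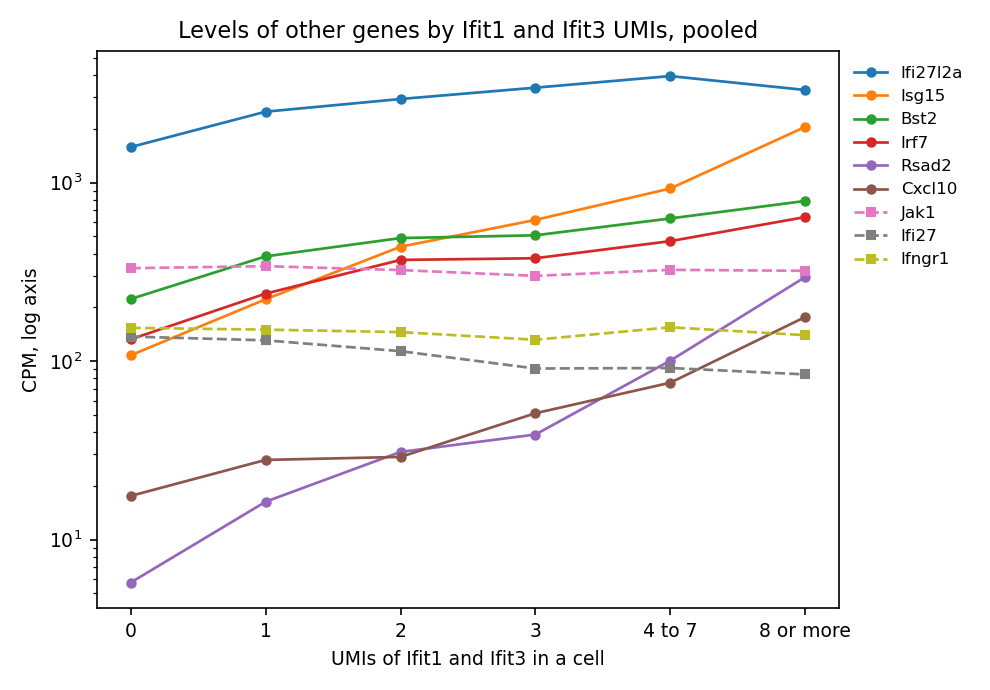
Level (CPM, log axis) of 9 genes in lymph node Cd4- and Cd8-labelled cells pooled, by the number of Ifit1 and Ifit3 UMIs in a cell. Solid lines such as Isg15 (108 to 2050 CPM) and Rsad2 (5.75 to 296 CPM) climb, while the dashed lines of Jak1 and Ifngr1 are level and that of Ifi27 declines from 137 to 84.2 CPM.

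Counted per cell at equal depth, the 2 sides overlapped. With 2000 UMIs drawn from each cell, the 145 interferon-stimulated genes together gave a median of 27 UMIs in negative cells, 35 in cells with 1 UMI of the rule, 41 with 2, 45 with 3, 54 with 4 to 7 and 76.5 with 8 or more. Over all positive cells the median was 48 and the 10th percentile 30. Of 3206 negative cells deep enough, 40.2% (38.5% to 41.9%) reached 30, and 5.02% (4.29% to 5.84%) reached 48. Of 673 positive cells 50.8% (47.0% to 54.7%) lay above the 95th percentile of negative cells. Some negative cells thus held as many interferon-stimulated transcripts at this depth as the median positive cell, and whether the cells form a continuous range or separate states was not tested.

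**Figure D5:**
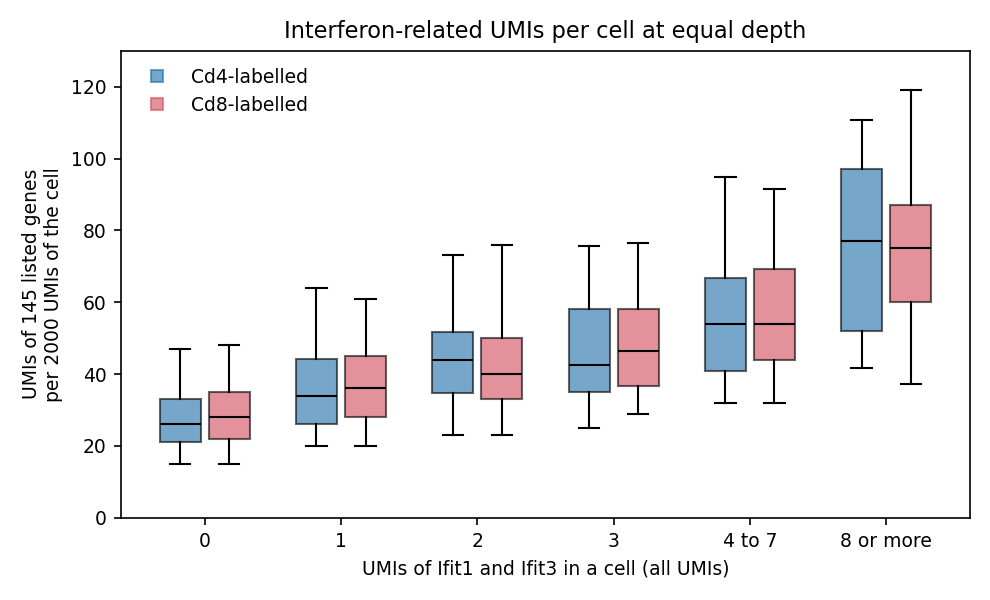
UMIs of 145 interferon-stimulated genes per cell, with each cell reduced to 2000 UMIs, by its Ifit1 and Ifit3 UMIs at full depth, for Cd4- and Cd8-labelled lymph node cells. Lines in the boxes are medians, boxes span the 25th to 75th and whiskers the 5th to 95th percentile of cells; pooled medians go from 27 to 76.5 and neighbouring classes overlap.

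Measures of cell quality were close between the sides, while markers of other cell types were low or differed by list. Positive and negative cells had medians of 5918 and 5497 UMIs, 1647 and 1559.5 genes, 3.004% and 3.08% mitochondrial counts and 43.2% and 44.4% ribosomal protein counts. UMIs of both coreceptors were found in 3.83% (2.52% to 5.56%) and 3.11% (2.54% to 3.76%). The 13 listed B cell markers summed to 258 and 264 CPM, with Ms4a1 at 0 in positive cells, and 11 macrophage and monocyte markers to 68.0 and 84.6 CPM, with Lyz2, Csf1r and C1qa at 0. The 7 plasmacytoid dendritic cell markers summed to 61.2 and 53.5 CPM, with Siglech at 0, the conventional dendritic cell markers to 0.948 and 1.72 CPM, the natural killer markers to 6.88 and 11.6 CPM, and the gamma delta T cell markers to 6.16 and 3.92 CPM. Ms4a1, C1qa and Siglech were at 0 in negative cells too. In negative Cd4- and Cd8-labelled cells most of the B cell sum was Ighm, at 231 and 189 CPM. Most of the macrophage sum there was Cst3, at 69.9 and 71.5 CPM. Pacsin1, at 45.1 and 46.0 CPM, made most of the plasmacytoid sum. The 6 regulatory T cell markers summed to 278 CPM in positive and 227 CPM in negative cells. In Cd4-labelled cells their defining gene Foxp3 had 9.44 against 2.16 CPM (12 and 14 UMIs, 4.38-fold, 1.85 to 10.2), and the markers Ikzf2 and Il2ra had 13.4 against 3.23 CPM and 16.5 against 3.39 CPM. The part of these markers in the result was not tested. All positive cells held a transcript of the T cell identity list. Without the 373 cells (59 positive) that held UMIs of a B cell, macrophage, dendritic or natural killer marker, 55 genes were called 2-fold higher in place of 54.

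The receptors of Ifit-positive cells were diverse. A receptor was recorded for 660 of 679 positive cells (97.2%), and all 660 were distinct. Among negative cells 3127 had a receptor, 3118 of them distinct, with at most 3 cells sharing one, and 7 receptors occurred on both sides. Across 15 beta chain variable segments, the share of Cd4-labelled cells with UMIs of a segment differed between the sides by at most 6.14 percentage points. In Cd8-labelled cells the largest difference was 3.17 points over 18 segments. The RNA libraries of lymph node and tumor shared 36 cell barcodes, 6 of them in positive and 25 in negative cells, and without them 53 genes were called pooled in place of 54.

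The same split was made in the other labelled cells of the series to describe the 54 genes there. In lymph node cells labelled Treg, 34 of 321 were Ifit-positive (10.6%, 7.45% to 14.5%). Of the 54 genes 48 were counted there, all 48 lay above 0, beside 49.7% of all genes, 35 were 2-fold higher, beside 2.77%, and the median was 1.31. In tumor cells labelled Cd4, 58 of 2451 were positive (2.37%, 1.80% to 3.05%), and 34 of 34 counted genes lay above 0, beside 50.4% of all genes, with 25 called, beside 1.41%. In tumor cells labelled Tdp, 216 of 2693 were positive (8.02%, 7.02% to 9.11%), and 50 of 50 lay above 0, beside 45.2%, with 47 called, beside 3.57%, at a median of 1.84. A gene that reached 50 CPM only on the positive side had to be higher there, so these counts describe the genes counted and support nothing. In tumor Cd4 cells, for example, Usp18 was counted at 50.6 against 8.38 CPM, and Rsad2, at 28.1 against 5.48 CPM, was not. At 2000 UMIs per cell the positive shares were 3.88% in Treg (12 of 309 cells, 2.02% to 6.69%), 0.703% in tumor Cd4 (0.410% to 1.12%) and 3.30% in tumor Tdp cells (2.66% to 4.06%). The lymph node Cd4 and Cd8 cells had 5.93% (5.26% to 6.65%). The Treg interval includes this share, so no order was read for Treg cells. These shares describe single libraries.

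Levels in the tumor cells differed by gene. Isg15 in tumor Tdp cells had 1464 against 126 CPM (11.6-fold) and Irf7 514 against 97.4 CPM (5.28-fold). Cxcl10 there had 182 against 5.84 CPM (31.2-fold, 24.4 to 40.2), where lymph node Cd8-labelled cells had 80.8 against 23.9 CPM (3.37-fold, 2.83 to 4.02). Treg-labelled cells carried Cxcl10 on both sides, at 412 against 144 CPM. The summed level of the 145 interferon-stimulated genes in Ifit-negative cells was 19038 CPM in tumor Cd4, 18476 CPM in tumor Tdp and 20418 CPM in Treg cells. Ifit-negative lymph node cells had 13709 CPM in the Cd4 label and 14449 CPM in the Cd8 label. Tumor and lymph node cells come from 1 RNA library each, so label, tissue and library cannot be told apart between them. The lists differed in direction in the tumor cells. Surface genes had 7508 CPM in tumor Cd4 and 8582 CPM in tumor Tdp cells, against 4105 CPM in lymph node Cd4-labelled cells. Effectors and signalling genes were also higher. Sensors were lower, at 695 and 646 against 834 CPM, as were GTPases, at 612 and 580 against 787 CPM. The modifier list was lower too. The Schlafen list, at 974 CPM in tumor Cd4 and 972 CPM in tumor Tdp cells, lay between the lymph node labels. Ifit-negative lymph node cells had 1059 CPM of it in the Cd4 label and 822 CPM in the Cd8 label.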

How the data were processed

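The authors deposited raw UMI counts per gene and cell in 1 table, and an annotation with other values per cell (library, cell label and receptor sequences). The submitters' processing notes name Cell Ranger 3.1.0 and the build mm10. Neither the filters on cells nor the rule behind the labels is given in these sources. Counts of a side were summed and scaled to CPM, with the log2 ratio taken on CPM + 1. Intervals of a fold are exact conditional intervals of a pair of Poisson counts, and those of a share are Clopper-Pearson, all at 95%. Summed UMIs were 4217757 in Ifit-positive and 18603058 in Ifit-negative cells. V, D and J segments of receptors were left out of the counts of genes. Named genes were the 20 highest and 10 lowest pooled log2 ratios with at least 50 CPM on the higher side, 20 UMIs in or expected in Ifit-positive cells and the same sign in both labels. Predicted, mitochondrial, ribosomal protein, receptor segment and sex-linked genes were left out of the naming, and members of 32 gene lists serve as examples. The members, the lists and the rule were chosen with earlier results of these data known. Scrublet (in scanpy 1.11.5) called 1 of 4988 cells (0.0200%), too few to have worked, so no doublets were removed. No source used here says whether doublets had been removed earlier, and free RNA was not estimated. The calculation was tested on simulated data. Alternatives changed the minimum, the pseudocount, the scaling (TMM in edgeR 4.0.16), the depth, the threshold of the rule and the cells included.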

Additional observations from a re-analysis of the deposited data

How the results depend on the processing

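Over 18 alternative settings, 2 of them chosen after seeing the data (without shared barcodes, and without cells of 8 or more Ifit1 and Ifit3 UMIs), all 360 log2 ratios of the 20 genes named as higher were above 0, and 359 were 1 or more. The exception was Oas1a, at 0.89 when the sides were called at 2000 UMIs. Of 180 values of the 10 genes named as lower 179 were below 0, the exception being Hdac7 at 0.01 with cells reduced to 2000 UMIs and the sides kept. TMM moved pooled log2 ratios by 0.005. Pooled calls of higher genes (54) became 26 at a minimum of 100 CPM, 115 with no minimum and 83 with sides called at 2000 UMIs. Cd4 calls (52) became 87 at a minimum of 20 CPM, 29 at 100 CPM, 280 with no minimum and 95 with sides called at 2000 UMIs. Cd8 calls (56) became 32 at 100 CPM, 147 with no minimum and 92 with sides called at 2000 UMIs. Calls of lower genes, pooled (0), Cd4 (1) and Cd8 (0), became 1, 7 and 2 at 20 CPM, 48, 389 and 86 with no minimum, 1, 3 and 1 when mitochondrial, ribosomal protein and receptor genes were left out of the total, and 1, 26 and 9 with sides called at 2000 UMIs. Cd4 lower calls were 6 with cells reduced and sides kept, and Cd8 lower calls 1 with the positive side from 3 UMIs. Genes of few counts enter without a minimum, and fewer UMIs remain at 2000 per cell; the cause of the other changes was not tested. The median log2 ratio of interferon-stimulated genes (0.98) became 1.11 with the mean of each cell's CPM, 1.21 with sides called at 2000 UMIs, 1.19 from 3 UMIs, 1.18 with a UMI of each gene, 1.10 in cells of 4000 to 8000 UMIs and 0.84 without cells of 8 or more UMIs. The positive share of Cd4- and Cd8-labelled cells (13.2% and 15.5%) became 6.46% and 5.58% at 2000 UMIs, 8.17% and 9.65% from 3 UMIs, 8.01% and 10.4% with a UMI of each gene, and 11.7% and 13.7% without cells of 8 or more UMIs. The other 102 of 140 values of these 9 results stayed within their limits. No paired analysis was possible because each tissue has 1 RNA library. Genes under 50 CPM, and differences between labels or tissues, are limited by depth and by the lack of replicates.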

Other observations

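Between 1.4-fold and 2-fold, 44 further genes had log2 ratios of 0.5 to 1, of which 29 were on a gene list and 15 were not. The following of the unlisted genes were picked after their values were seen. Usp25, a deubiquitinase, had 86.8 CPM in Ifit-positive and 48.4 CPM in Ifit-negative cells (1.79-fold, 1.58 to 2.03), and was 1.76-fold higher in Cd4-labelled and 1.81-fold in Cd8-labelled cells. Tor1aip1, a protein of the inner nuclear membrane, had 68.3 against 38.5 CPM (1.77-fold, 1.54 to 2.03). Chmp4b, a subunit of the membrane-cutting ESCRT complex, had 178 against 105 CPM (1.70-fold, 1.56 to 1.85), and Smchd1, a chromatin protein, 193 against 121 CPM (1.60-fold, 1.47 to 1.73). These 4 genes were above 1 in both labels.

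Naa20, the catalytic subunit of an N-terminal acetyltransferase, differed in direction between the labels. It was 1.99-fold higher in positive Cd8-labelled cells (67.5 against 33.9 CPM, interval 1.67 to 2.36) and 0.878-fold in Cd4-labelled cells (21.2 against 24.2 CPM, interval 0.561 to 1.33). Whether the labels differ was not tested. Plac8 had 484 against 316 CPM in Cd8-labelled cells (1.53-fold) and 5.51 against 2.46 CPM in Cd4-labelled cells, so its transcripts were mostly in the Cd8 label.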
